A study of Mus musculus with 6 samples.

Results

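Rab GTPases are the largest family of small GTPases that direct membrane traffic, and 59 genes of the deposited table, with 154 annotated transcripts, carry a mouse Rab name. They were taken from all 21801 genes and 59192 transcripts by their symbol alone (Rab, a number and at most a letter and a further digit), which uses no measured value. The level of a gene was the sum of its transcripts in FPKM, a fragment measure corrected for transcript length and for sequencing depth. Of the 59 Rab genes, 41 averaged at least 1 FPKM over the 6 libraries and were tested for a treatment difference, among 9925 such genes in all, and 3 of the 41, Rab27a, Rab32 and Rab38, were set against the other 38 as the Rabs of the melanosome.

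All libraries came from B16F10-OVA, a pigmented line derived from a mouse melanoma that expresses ovalbumin, so both groups carry the transgene. The treated group, 3 libraries, received 50 µM Ac4ManNAz, an acetylated azide analog of the sialic acid precursor N-acetylmannosamine, from day 0 until RNA was taken on day 5, with a passage on day 3. The untreated group also has 3 libraries. The comparison asks whether the metabolic label itself shifts transcript levels. It rests on 1 cell line, and nothing in the labels marks the replicates as separate cultures, so the p-values reflect a spread between libraries that could be technical.

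A Rab switches between a GDP-bound form, held soluble in the cytosol by GDI, and a GTP-bound form on a membrane, where it recruits effectors such as motors and tethers. Guanine nucleotide exchange factors (GEFs) turn it on, GTPase-activating proteins (GAPs) turn it off, and lipid anchors on cysteines near the carboxyl terminus hold it on the membrane. In pigment cells Rab32 and Rab38 send tyrosinase and related enzymes from endosomes to the maturing melanosome. Rab27a couples the finished organelle, through melanophilin, to the actin motor myosin Va. Mice without functional Rab27a or Rab38 have diluted or brown coats, known as ashen and chocolate.

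The pigment cell label held against its markers, of which 8 of 8 averaged at least 1 FPKM. Their summed level was 7681 to 9354 FPKM in untreated and 7458 to 9139 FPKM in treated libraries. One of them, Mlana, stood apart in Ac4ManNAz replicate 2, at 158 FPKM against 856 to 1269 FPKM in the other 5 libraries. At that cut, 1 of 7 leukocyte markers (Lyz2), 1 of 6 fibroblast markers (Col1a2), 0 of 5 endothelial and 0 of 5 keratinocyte markers were present, and the leukocyte marker Ptprc was listed at 0 in all libraries. The summed level reached at most 4.35 FPKM for leukocyte and 4.50 FPKM for fibroblast markers. Library sums ran from 310003 to 347126 FPKM, and 9678 to 10042 genes were at 1 FPKM or more.

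The most abundant Rab transcripts by far were those of Rab38. Its level was 301, 307 and 235 FPKM in untreated replicates 1 to 3 and 310, 277 and 243 FPKM in Ac4ManNAz replicates 1 to 3. Untreated replicate 3 and Ac4ManNAz replicate 3 were the lowest of their groups, and the groups overlapped. Rab38 ranked 170 among all genes, at percentile 98.3 of the 9925 tested genes by mean FPKM, and averaged 2.75 times the next Rab, Rab7. Even its lowest library, at 235.4 FPKM, stood above the highest Rab7 library at 106.3 FPKM.

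Rab27a levels were 91.4, 78.3 and 59.2 FPKM in untreated and 71.3, 60.8 and 73.5 FPKM in treated replicates 1 to 3. The treated values lay inside the untreated range. It ranked 723 among all genes, at percentile 92.7. Its close relative Rab27b, which acts beside it in secretory granules of other cell types, was at or near 0 in every library, with a highest value of 0.0209 FPKM.

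Rab32 was the lowest and the most variable of the 3, at 26.9, 56.1 and 47.6 FPKM in untreated and 32.5, 36.5 and 40.0 FPKM in treated replicates 1 to 3. Untreated replicate 1 held the lowest value and untreated replicate 2 the highest, so the treated libraries again fell within the untreated spread. Its coefficient of variation over the 6 libraries was 26.4%, against 11.8% for Rab38 and 16.4% for Rab27a. Rab32 ranked 1439 among all genes, at percentile 85.5.

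As deposited, with the genome build not given in the sources used here, Rab38 (ENSMUSG00000030559) spans chromosome 7 from 88079481 to 88140780. Rab27a (ENSMUSG00000032202) spans chromosome 9 from 72952136 to 73004911, and Rab32 (ENSMUSG00000019832) chromosome 10 from 10420746 to 10434009. All 3 are genes with a complete coding sequence in GENCODE M21, matched by transcript identifier. They differ at the end that is lipid-anchored, which is why the last 10 codons of the most abundant transcript are shown here (5′ to 3′, stop codon left out, GENCODE M21 on GRCm38), with cysteine codons in capitals. Rab7 and Rab2a, abundant Rabs of other compartments, are printed beside them for comparison.
Rab38: gttgtcagcTGCtctggcTGTgccaaatcc
Rab27a: gaggagaaggagaaggggttgTGTggcTGT
Rab32: cccacaacaaagcccaggtcccagTGCTGC
Rab7: gccaaggcctccgcagaaagcTGCagtTGT
Rab2a: ggcggacagcaggcagggggaggcTGCTGT
Rab32 and Rab2a end in adjacent cysteine codons, Rab27a and Rab7 in cysteine codons 1 codon apart, and Rab38 has 1 cysteine codon among its last 5. Across the 41 tested Rabs, 12 ended with a cysteine pair, 12 had a cysteine codon, 1 other codon and a final cysteine codon, and 10 more had 2 cysteine codons among the last 5. Rab38 belonged to the remaining 7, with Rab8a, Rab8b, Rab13, Rab18, Rab28 and Rab40c. Their levels ranged from 279 FPKM for Rab38 to 2.54 FPKM for Rab40c.

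Sequence identity between Rabs bears on whether a read can be assigned to 1 gene. Rab32 and Rab38, the closest pair among the 3 melanosome Rabs, shared 72.1% of aligned coding bases and no run of identical bases longer than 14. For Rab27a and Rab27b the identity was 69.2% and the longest shared run 32 bases. Among the 16 Rab pairs compared, the longest run was 38 bases, in Rab1a and Rab1b. Read length and the handling of multiply mapped reads were not given in the sources used here.

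**Figure D1:**
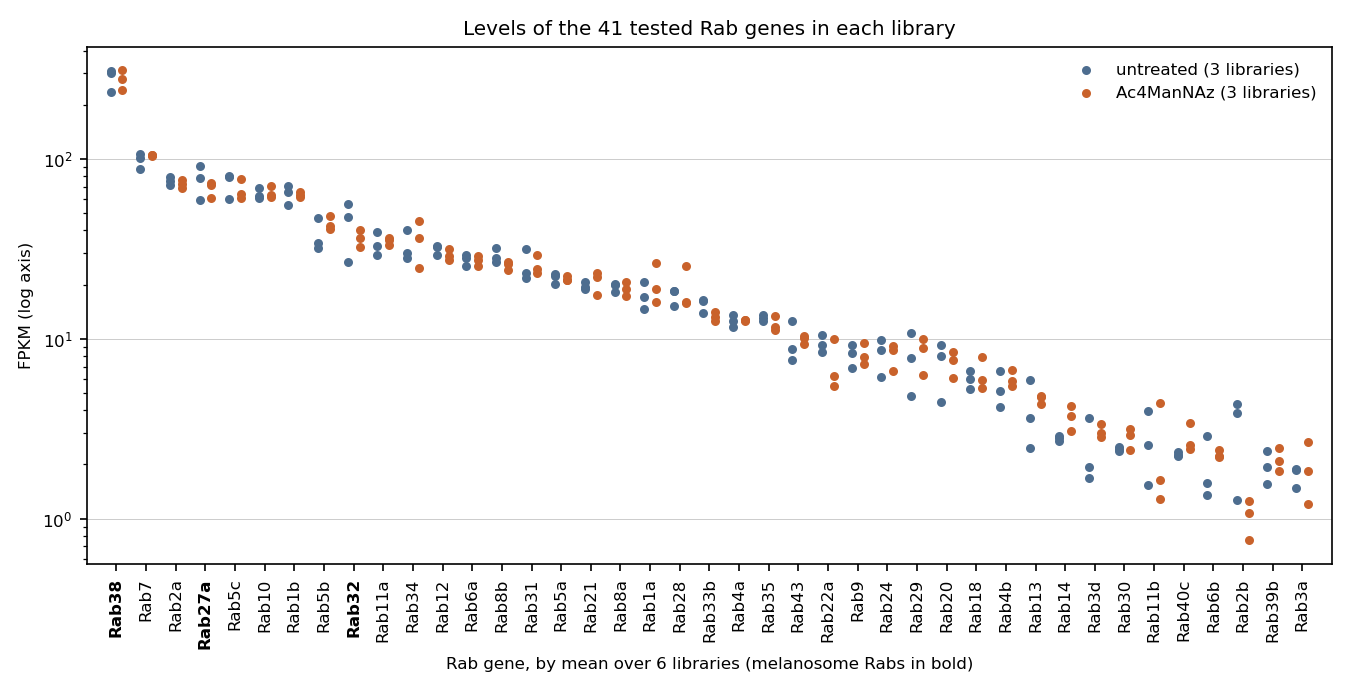
FPKM of each of the 41 tested Rab genes (log axis), ordered by their mean over the 6 libraries, with 3 untreated points and 3 Ac4ManNAz points per gene and the melanosome Rabs in bold. Rab38 stands apart at 235 to 310 FPKM, and the treated and untreated points of most genes lie over each other.

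Together the melanosome Rabs held 32.3% of the Rab FPKM averaged over all libraries. Their share was 32.8% ± 1.60 in untreated and 31.6% ± 1.55 in treated libraries (SD, n = 3), and Rab38 alone made up 23.0% ± 1.24 and 22.9% ± 2.15. The other 38 tested Rabs had a median level of 12.6 FPKM (range 1.82 to 101), against a median of 9.48 FPKM over all tested genes. On the log2(FPKM + 1) scale the mean of the 3 exceeded the mean of the other 38 by 2.64, 3.06 and 2.91 in untreated and by 2.78, 2.64 and 2.81 in treated replicates 1 to 3. The groups overlapped in this difference, with means of 2.87 ± 0.21 and 2.74 ± 0.09 (SD, n = 3).

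In the rest of the family the transcripts were spread over all compartments. These shares count tested and untested genes alike. Rabs of early and recycling endosomes, 16 genes with 13 tested, held 21.9% of the Rab FPKM. Those of the secretory pathway and Golgi, 13 genes with 11 tested, held 21.1%. The late endosomal and lysosomal group, 9 genes with 6 tested, held 13.1%. The 13 genes of exocytosis and polarised delivery, with 6 tested, held 9.94%. The 5 genes placed in no group, of which Rab28 and Rab40c were tested, held 1.75%.

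Each compartment was led by 1 or a few genes. Rab7, which directs late endosomes and lysosomes, was at 101, 106 and 87.8 FPKM in untreated and 105, 104 and 105 FPKM in treated replicates 1 to 3. Rab2a, of traffic between endoplasmic reticulum and Golgi, was at 78.8, 75.0 and 71.2 against 75.9, 69.1 and 72.5 FPKM. Rab7 differed mainly by its low untreated replicate 3, and Rab2a, with a coefficient of variation of 4.74%, was the steadiest Rab of the 41.

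Rab5c, an organiser of early endosomes, was at 79.9, 79.6 and 59.7 FPKM in untreated and 60.9, 63.6 and 77.5 FPKM in treated replicates 1 to 3. Rab10, which sends vesicles from the Golgi and endosomes to the cell surface, was at 68.7, 61.9 and 61.0 against 61.4, 70.3 and 63.1 FPKM. Rab1b, needed for export from the endoplasmic reticulum, was at 55.6, 65.5 and 70.5 against 62.6, 61.5 and 65.2 FPKM. Each of these 3 genes overlapped between the groups, with no library consistently high.

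Rab5b, a second early endosomal Rab, was at 47.2, 31.9 and 34.2 FPKM in untreated and 40.9, 42.5 and 48.2 FPKM in treated replicates 1 to 3. Rab11a, the Rab of recycling endosomes, was at 39.3, 32.9 and 29.2 against 35.4, 36.2 and 33.1 FPKM. Both were highest in untreated replicate 1 among the untreated libraries, and both overlapped between groups. In the order of the means, Rab38 was separated from Rab7, and Rab7 from Rab2a, over all 6 libraries, while Rab2a, Rab27a, Rab5c, Rab10 and Rab1b overlapped one with the next. A further gap lay between Rab1b and Rab5b, and every pair of neighbours below Rab5b overlapped.

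Of the 41 tested Rabs, 23 averaged at least 10 FPKM and 10 averaged under 5 FPKM. Closest to the cut of 1 FPKM on the upper side were Rab3a, known from synaptic vesicles, at a mean of 1.82 FPKM, and Rab39b at 2.05 FPKM. On the lower side were Rab36 at 0.610 FPKM and Rab23, a regulator of Hedgehog signalling, at 0.484 FPKM. The other 16 untested genes were Rab44, Rab7b, Rab17, Rab15, Rab3b, Rab26, Rab37, Rab9b, Rab33a, Rab25, Rab19, Rab40b, Rab42, Rab39, Rab3c and Rab27b, with means from 0.380 down to 0.00585 FPKM. Among the 18 untested genes, 12 were above 0 in all libraries. The other 6, Rab19, Rab40b, Rab42, Rab39, Rab3c and Rab27b, were listed at 0 in at least 1 library. A library below 0.1 of the gene's own median occurred in 0 tested Rabs and in Rab19, Rab40b, Rab39 and Rab3c.

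No Rab gene changed with Ac4ManNAz by the test used. The limma fit over 9925 genes called 0 of 41 Rabs at an adjusted p under 0.05, where it called 0 genes in all (0%), and the smallest adjusted p of a Rab was 0.9998. Without adjustment, 1 Rab, Rab2b, was below 0.05, in the direction of lower levels in treated cells. Over all genes 90 (0.907%) were lower and 87 (0.877%) higher at that cut.

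Most differences were closely bounded. For 39 of 41 Rabs (95.1%) the 95% interval of the treated minus untreated difference lay within 2-fold in either direction, as it did for 9030 of all tested genes (91%), and for 28 Rabs it lay within 1.5-fold. The exceptions to the 2-fold bound were Rab2b and Rab11b. The median difference was 0.02 for the Rabs and -0.0014 for all tested genes, and the median absolute difference 0.09 and 0.10, in log2(FPKM + 1). On that scale differences of genes with low FPKM are understated. In bulk RNA, fewer cells of a kind and less RNA per cell cannot be told apart.

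Among the 41 Rabs, 23 averaged higher and 18 lower in treated cells (56.1% higher, against 49.6% of all tested genes). The split moved with the scaling and with single libraries. With libraries rescaled to equal sums it was 30 higher to 11 lower, where the median of all genes also moved, to 0.04, and it was 14 to 27 without untreated replicate 3 and 30 to 11 without untreated replicate 1. Untreated replicate 3 had the lowest Rab sum, 1090 FPKM, beside 1292 and 1276 FPKM in the other untreated libraries and 1241, 1203 and 1174 FPKM under treatment. Its part in the single gene differences was not tested beyond leaving it out.

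**Figure D2:**
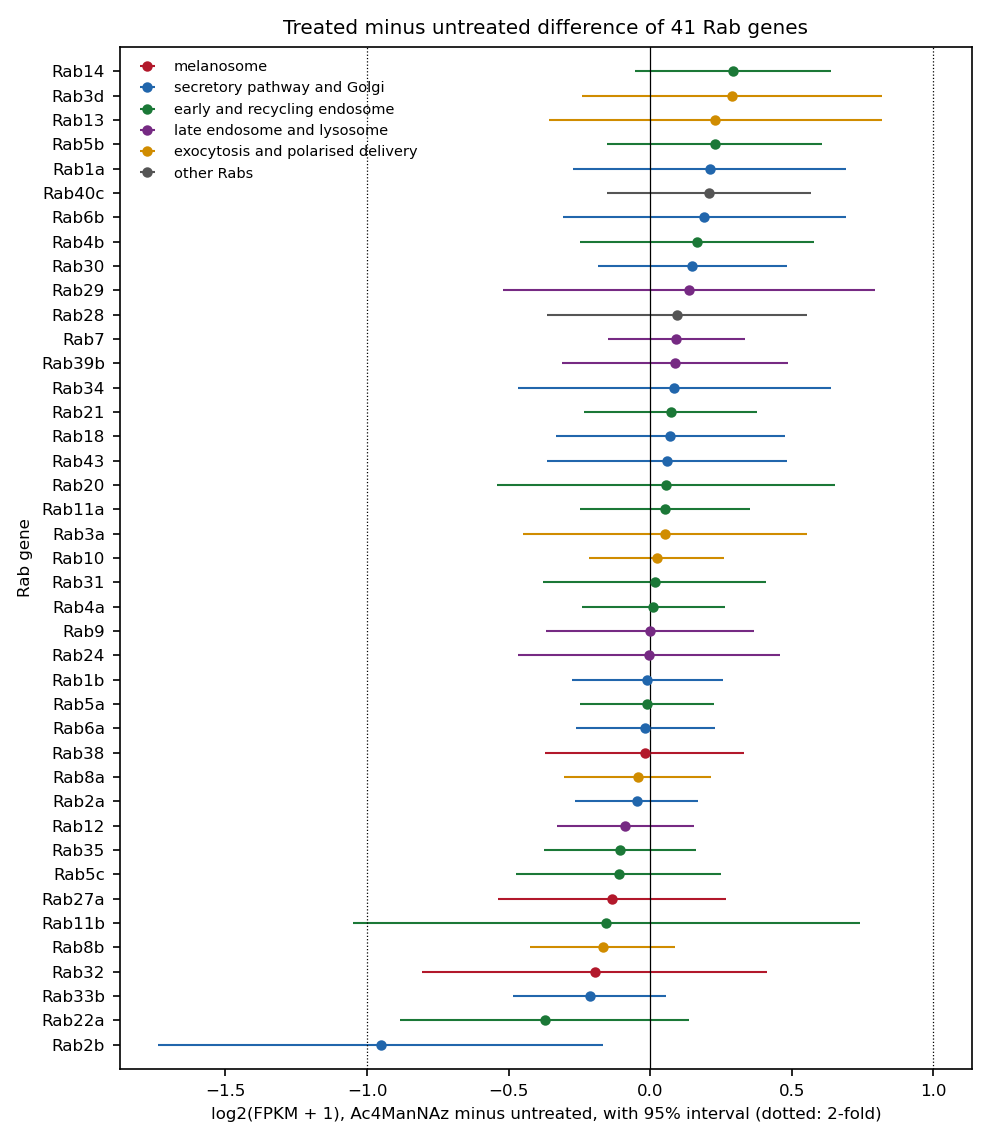
Treated minus untreated difference in log2(FPKM + 1) of the 41 tested Rabs with 95% limma intervals, coloured by compartment, with dotted lines at 2-fold. The intervals of 39 genes lie between the dotted lines, Rab2b and Rab11b cross the lower one, and Rab2b alone does not include 0.

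The melanosome Rabs all averaged lower in treated cells by less than 1 SD of the untreated libraries, but Rab38 averaged higher, by 0.03 in log2, once libraries were rescaled to equal sums. Rab38 averaged 281 ± 39.6 FPKM in untreated and 277 ± 33.5 FPKM in treated libraries (SD, n = 3). The log2 difference of -0.02 had a standard error of 0.149 and a 95% interval from -0.37 to 0.33 (limma, unadjusted p = 0.899). It came to 0.04 without untreated replicate 1, 0.05 without untreated replicate 2 and 0.07 without Ac4ManNAz replicate 3. In the other direction it was -0.14 without untreated replicate 3, -0.10 without Ac4ManNAz replicate 1 and -0.23 with sample quality weights (limma, unadjusted p = 0.0616, adjusted p = 0.230).

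Rab27a averaged 76.3 ± 16.2 FPKM in untreated and 68.6 ± 6.80 FPKM in treated libraries (SD, n = 3). The difference in log2 was -0.13, and its 95% interval ran from -0.54 to 0.27 (limma, unadjusted p = 0.456). For Rab32 the means were 43.5 ± 15.0 and 36.3 ± 3.76 FPKM (SD, n = 3). The log2 difference of -0.20 had the widest interval of the 3, from -0.81 to 0.41 (limma, unadjusted p = 0.474). Rab27a ranged from -0.30 without untreated replicate 3 (limma, unadjusted p = 0.0663) to 0.01 without untreated replicate 1. Rab32 ranged from -0.50 without untreated replicate 1, its lowest library (limma, unadjusted p = 0.0102, adjusted p = 0.921), to 0.02 without untreated replicate 2, its highest, and was -0.37 with sample quality weights (limma, unadjusted p = 0.0549, adjusted p = 0.218). With all 6 libraries and equal weights, the intervals of all 3 lay within 2-fold.

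Rab2b, a lesser-expressed relative of Rab2a, showed the largest difference of the family. Its level was 4.36, 3.88 and 1.27 FPKM in untreated and 1.25, 1.07 and 0.758 FPKM in treated replicates 1 to 3. The treated values were all below the untreated ones, but untreated replicate 3 sat beside the highest treated library, and the coefficient of variation over the 6 libraries, 75.4%, was the highest among the tested Rabs. The log2 difference was -0.95 with a 95% interval from -1.74 to -0.17 (limma, unadjusted p = 0.0241).

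That unadjusted p was 0.0812 without untreated replicate 1, 0.0820 without untreated replicate 2 and 0.0692 without Ac4ManNAz replicate 3, and it was 0.000377 without untreated replicate 3. The single transcript listed above 0, Rab2b-201, carried the whole gene level. The span of Rab2b overlaps that of Tox4, whose level was 21.1, 17.6 and 19.3 FPKM in untreated and 18.8, 18.2 and 18.9 FPKM in treated replicates 1 to 3. The libraries are strand-specific, yet whether counting used the strand is not stated, so shared reads cannot be assigned. Rab2a, which shares 75.7% of coding bases with Rab2b and no run longer than 26 bases, differed by -0.05 with an interval from -0.27 to 0.17.

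Only Rab14 and Rab40c, 2 of 41 (4.88%), had all treated libraries above all untreated ones, as did 208 of all tested genes (2.1%). Rab14, of traffic between Golgi and endosomes, was at 2.79, 2.71 and 2.89 FPKM in untreated and 3.74, 4.22 and 3.08 FPKM in treated replicates 1 to 3. Rab40c, an adaptor of a ubiquitin ligase, was at 2.25, 2.35 and 2.22 against 2.44, 3.39 and 2.57 FPKM. The gap between the groups was narrow in both, 2.89 to 3.08 FPKM for Rab14 and 2.35 to 2.44 FPKM for Rab40c. The log2 differences were 0.29, with an interval from -0.05 to 0.64, and 0.21, with an interval from -0.15 to 0.57, so neither interval excluded 0.

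In the opposite direction Rab2b was the 1 Rab of 41 (2.44%) with all treated libraries below all untreated ones, against 368 of all tested genes (3.71%). The next smallest unadjusted p among genes lower in treated cells belonged to Rab33b, a Golgi Rab with a part in autophagy. It was at 16.2, 14.0 and 16.5 FPKM in untreated and 12.5, 14.1 and 13.1 FPKM in treated replicates 1 to 3. Untreated replicate 2 lay within the treated range (limma, unadjusted p = 0.105). The lower sum was not seen in its most abundant transcript, Rab33b-201, with 78.3% of the gene level. That transcript differed by 0.05 in log2, with an interval from -0.56 to 0.67. The shorter Rab33b-202 was at 7.52, 0.850 and 5.36 FPKM in untreated and 4.58, 0.378 and 0.0339 FPKM in treated replicates 1 to 3.

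Rab22a, of early endosomal sorting, was at 8.43, 10.5 and 9.19 FPKM in untreated and 6.21, 9.98 and 5.43 FPKM in treated replicates 1 to 3. Rab8b, an exocytic Rab, was at 32.1, 28.0 and 26.7 against 26.7, 24.1 and 25.9 FPKM. Rab35, of recycling to the plasma membrane, was at 13.6, 13.0 and 12.5 against 13.4, 11.3 and 11.5 FPKM. Ac4ManNAz replicate 2 of Rab22a and Ac4ManNAz replicate 1 of Rab8b and Rab35 reached into the untreated range. Their log2 differences were -0.37, -0.17 and -0.11, and all 3 intervals included 0.

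Among genes higher in treated cells, after Rab14, the smallest unadjusted p were those of Rab5b (0.198), Rab40c (0.213), Rab3d (0.237) and Rab30 (0.327). Rab3d, a Rab of secretory granules, was at 3.60, 1.93 and 1.69 FPKM in untreated and 3.00, 2.83 and 3.34 FPKM in treated replicates 1 to 3. Rab30, a Golgi Rab, was at 2.42, 2.37 and 2.50 against 2.41, 2.90 and 3.15 FPKM. Untreated replicate 1 was the highest Rab3d library of all 6, and Ac4ManNAz replicate 1 of Rab30 lay within the untreated range. The log2 differences were 0.23 for Rab5b, 0.29 for Rab3d and 0.15 for Rab30.

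By compartment the counts were mixed and no group held a called gene. Of the tested Rabs, 8 of 13 in early and recycling endosomes averaged higher in treated cells, 6 of 11 in the secretory pathway and Golgi, 3 of 6 in late endosomes and lysosomes and 4 of 6 in exocytosis and polarised delivery. Rab28 and Rab40c, of no group, also averaged higher. The group medians in log2(FPKM + 1) ran from -0.13 for the melanosome Rabs to 0.06 for the secretory pathway and Golgi, apart from 0.15 for the 2 ungrouped genes.

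The partners of the melanosome Rabs were also without a called gene. Myosin Va and melanophilin, which with Rab27a link melanosomes to actin, were abundant. Myo5a was at 127, 107 and 106 FPKM in untreated and 121, 117 and 128 FPKM in treated replicates 1 to 3. Mlph was at 65.8, 80.5 and 84.9 against 75.1, 70.8 and 77.6 FPKM. Both overlapped between groups, with log2 differences of 0.11 and -0.04. Sytl2, a Rab27a effector that tethers granules to the plasma membrane, spread more than 2-fold within the untreated group, at 83.2, 48.0 and 31.2 FPKM, and was at 72.7, 40.9 and 38.8 FPKM in treated replicates 1 to 3.

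Hps1 and Hps4 form the complex that activates Rab32 and Rab38. Hps1 was at 13.2, 9.33 and 12.2 FPKM in untreated and 11.4, 7.27 and 10.6 FPKM in treated replicates 1 to 3, and Hps4 at 3.40, 1.48 and 1.52 against 1.68, 1.68 and 1.38 FPKM. Ankrd27, an effector of both Rabs also called Varp, was at 18.7, 16.6 and 15.3 against 13.9, 14.8 and 16.1 FPKM. In all 3 the groups overlapped, and the log2 differences were -0.23, -0.23 and -0.16. The GAPs Sgsm2, for Rab32 and Rab38, and Tbc1d10a, for Rab27a, averaged 14.2 and 24.6 FPKM over all libraries and differed by -0.06 and -0.03. Madd, a GEF of Rab27a, averaged 0.457 FPKM and was not tested.

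Of the 16 partners listed, 13 were tested. In treated cells 3 averaged higher (23.1%, against 49.6% of all tested genes) and 10 lower, with a median log2 difference of -0.04. How this split moves with the scaling or with single libraries was not tested. Hps5, a subunit of a complex for sorting to melanosomes, was the 1 partner of 13 below an unadjusted limma p of 0.05. Over all tested genes 90 (0.907%) were lower at that cut. Hps5 was at 2.14, 2.04 and 1.07 FPKM in untreated and 0.573, 0.996 and 0.874 FPKM in treated replicates 1 to 3. As for Rab2b, untreated replicate 3 was the untreated library closest to the treated ones, and the groups did not overlap. Hps5 was the 1 partner of 13 (7.69%) with all treated libraries below all untreated ones, against 368 of all tested genes (3.71%). Its log2 difference was -0.58 with a 95% interval from -1.08 to -0.08 (limma, unadjusted p = 0.0284, adjusted p = 0.9998).

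**Figure D3:**
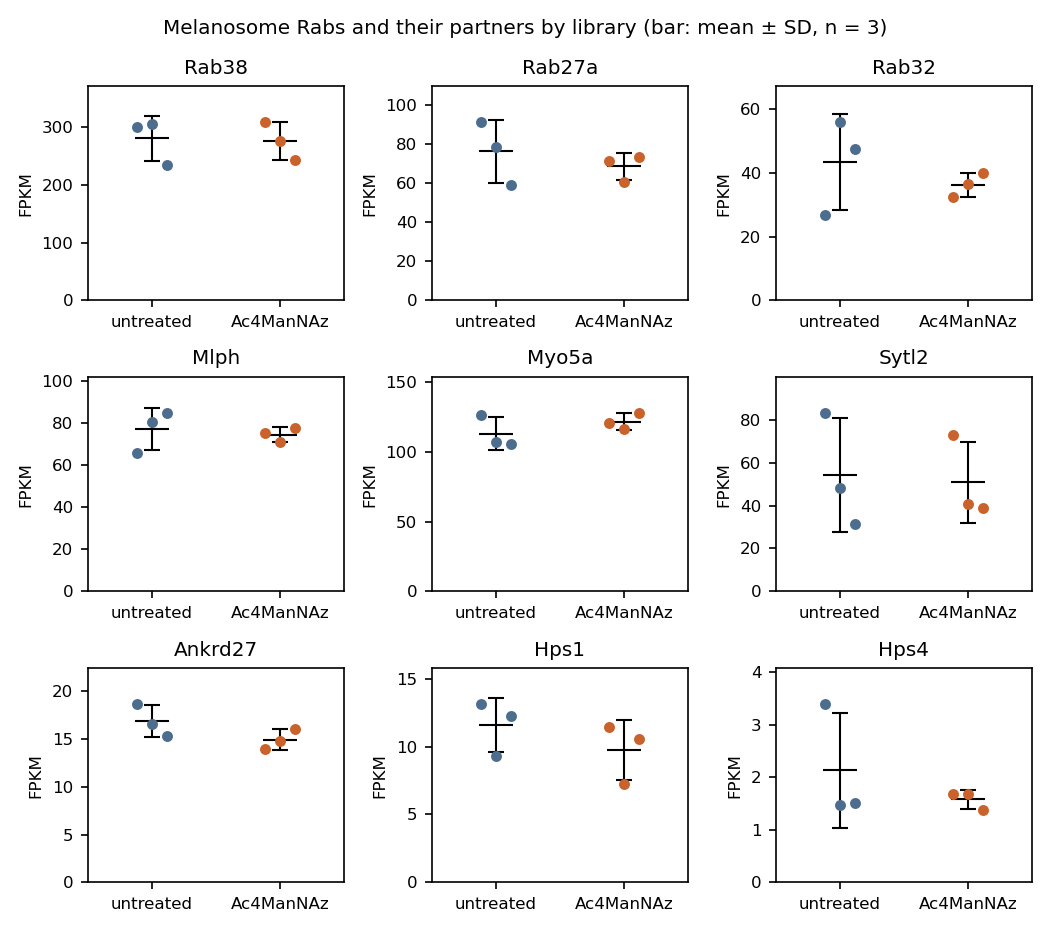
FPKM of Rab38, Rab27a, Rab32 and 6 of their partners in each of the 3 untreated and 3 Ac4ManNAz libraries, with the mean and SD of each group, on axes that start at 0. The groups overlap in all 9 genes, and Sytl2 and Rab32 show the widest untreated spread among genes above 20 FPKM.

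The general Rab machinery was present and likewise without a called gene. Of the 8 genes of lipid attachment and the GDI cycle, all were tested. Among them 5 averaged higher (62.5%, against 49.6% of all tested genes) and 3 lower. Gdi2, a GDI, was at 116, 111 and 99.3 FPKM in untreated and 96.4, 107 and 108 FPKM in treated replicates 1 to 3, with the groups overlapping. The escort proteins Chm and Chml, which present new Rabs for prenylation, averaged 7.81 and 1.40 FPKM, and the Rab-binding Rabif 6.32 FPKM. Rabggta, the alpha subunit of the geranylgeranyl transferase, averaged 4.10 FPKM.

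Rabggtb, its beta subunit, was the unsteady member at 1.80, 7.99 and 4.47 FPKM in untreated and 10.4, 7.81 and 2.15 FPKM in treated replicates 1 to 3. The lowest and the highest value came from libraries of different groups. Its interval, from -0.96 to 1.76 in log2, therefore bounded little, while the other 7 genes lay within 2-fold. Log2 differences were -0.06 for Gdi2, -0.09 for Chm, 0.07 for Chml, -0.04 for Rabif and 0.02 for Rabggta.

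Among regulators and effectors, 25 of 31 listed GEFs, 27 of 34 GAPs and 25 of 35 effectors were tested, and 0 were called. The numbers averaging higher and lower were 13 and 12 for GEFs, 16 and 11 for GAPs and 18 and 7 for effectors. The shares averaging higher were 52%, 59.3% and 72%, against 49.6% of all tested genes. Whether these splits move with the scaling or with single libraries, as that of the Rabs did, was not tested. The GAP Evi5 was the only gene of these lists at an unadjusted limma p below 0.05. Over all tested genes 87 (0.877%) were higher at that cut. Evi5 was at 15.1, 14.4 and 13.3 FPKM in untreated and 19.7, 18.5 and 15.9 FPKM in treated replicates 1 to 3, without overlap (limma, log2 difference 0.32, unadjusted p = 0.0340, adjusted p = 0.9998). Evi5 and Rab3gap2, 2 of 27 GAPs (7.41%), had all treated libraries above all untreated ones, as did 1 of 25 GEFs (4%) and 2.1% of all tested genes. All treated libraries lay below in Tbc1d7 and Tbc1d14, also 2 of 27 GAPs (7.41%), against 3.71% of all tested genes.

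The table lists single transcripts, and 29 of the 41 tested Rabs have more than 1. In 15 of these the most abundant transcript held at least 90% of the gene level, as for Rab38-201 and Rab27a-201, at 99.6% and 99.3% of their genes. Of the 56 Rab transcripts that averaged 1 FPKM or more, 0 were called, against 9 of 14846 transcripts in all (0.0606%). At an unadjusted p under 0.05 there was 1, Rab2b-201 (1.79%), against 377 in all (2.54%).

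The most abundant transcript was not the same in every library for 5 genes, Rab7, Rab6a, Rab11b, Rab40c and Rab3a. Rab7 gave the widest swing. Rab7-204 held 3.16%, 77.6% and 83.2% of the gene level in untreated and 64.1%, 80.5% and 3.52% in treated replicates 1 to 3, and Rab7-205 held 85.6%, 19.2% and 13.3% against 32.5%, 15.6% and 80.7%. Untreated replicate 1 and Ac4ManNAz replicate 3 thus stood against the other 4 libraries, and the groups overlapped. The summed Rab7 level stayed between 87.8 and 106 FPKM. Both transcripts have the same 624 coding bases, stop codon included, and 96.1% of the 31-base words of Rab7-204 and 90.3% of those of Rab7-205 occur in the other.

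**Figure D4:**
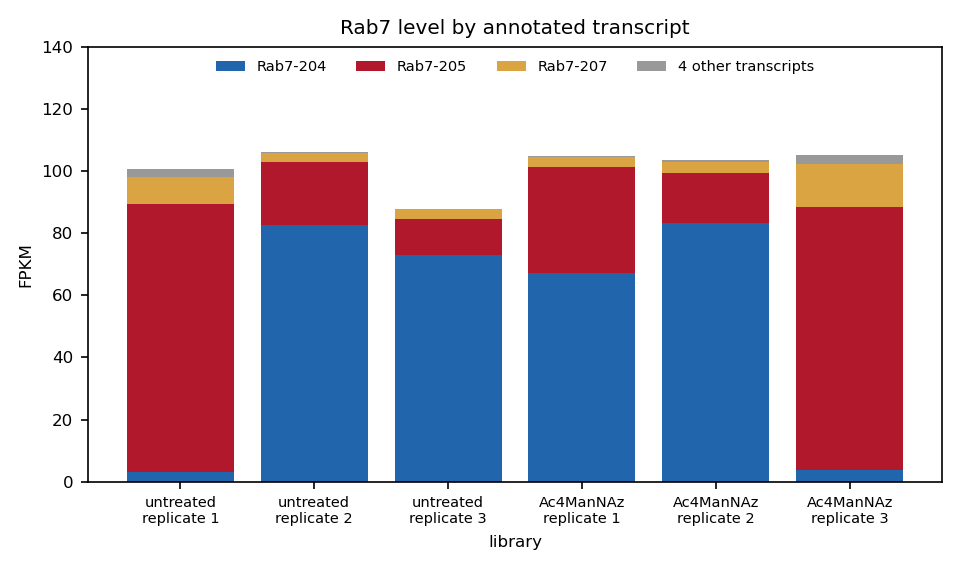
Rab7 level in FPKM in each library, stacked by annotated transcript. The whole bars differ little, from 87.8 to 106 FPKM, while Rab7-205 makes up most of untreated replicate 1 and Ac4ManNAz replicate 3 and Rab7-204 most of the other 4 libraries.

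For Rab6a, a Golgi Rab, the most abundant transcripts encode different proteins. Its transcripts Rab6a-201 and Rab6a-202, products of alternative exons, differ at 30 coding bases, and 3 of the affected codons name another amino acid. The stretch from coding base 178 to 285 that holds all 30 is shown from GENCODE M21 on GRCm38 (chromosome 7, coding strand, 5′ to 3′), with the differing bases in capitals.
Rab6a-201: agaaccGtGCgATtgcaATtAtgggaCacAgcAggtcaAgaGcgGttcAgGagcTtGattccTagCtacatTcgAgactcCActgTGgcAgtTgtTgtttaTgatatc
Rab6a-202: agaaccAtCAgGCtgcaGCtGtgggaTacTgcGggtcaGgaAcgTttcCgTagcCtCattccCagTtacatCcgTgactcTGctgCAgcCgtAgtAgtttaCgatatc
Rab6a-202 was at 16.8, 12.5 and 20.9 FPKM in untreated and 13.2, 17.5 and 16.7 FPKM in treated replicates 1 to 3. Rab6a-201 was at 11.4, 12.9 and 8.25 against 12.2, 11.3 and 10.8 FPKM. Untreated replicate 3 had the most Rab6a-202 and the least Rab6a-201, and both transcripts overlapped between the groups. The share of Rab6a-202 ranged from 49.1% to 71.7% over the 6 libraries, and the summed Rab6a level from 25.4 to 29.1 FPKM.

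Where a family has several members, how far 1 stood above another by FPKM varied. Rab2a averaged 35.1 times Rab2b, Rab11a 13.4 times Rab11b, Rab6a 13.0 times Rab6b and Rab1b 3.35 times Rab1a. Rab8b and Rab8a were closer, at 27.3 and 19.2 FPKM. Rab11b, the other gene outside the 2-fold bound, was at 3.98, 2.57 and 1.53 FPKM in untreated and 1.64, 4.38 and 1.29 FPKM in treated replicates 1 to 3. Single libraries of both groups were high, and its interval ran from -1.05 to 0.74 around a log2 difference of -0.16.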

How the data were processed

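RNA of 6 libraries was rRNA-depleted and sequenced as strand-specific libraries, per the labels' protocols. The authors deposited 1 table of FPKM per transcript, unit taken from its name and values. Aligner, quantifier, build and annotation were not given in the sources used here. The table holds no counts. The commonest low FPKM times length implied 30100000 to 45300000 fragments per library, if that stands for 1 fragment.

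Transcripts were summed to genes and taken to log2(FPKM + 1). Genes averaging 1 FPKM or more were tested with limma 3.58.1 (R 4.3.3, eBayes with trend, group only, two-sided), adjusted by Benjamini-Hochberg over all 9925 genes at 0.05. Differences are treated minus untreated, and the fit was tested on simulated shifts. Transcripts were tested likewise. Tables used pandas 2.3.3, sequences Biopython 1.88.

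Members and gene lists were chosen with earlier results of these data known. Named were the melanosome Rabs, the 10 most abundant Rabs, the 5 smallest unadjusted p in each direction, Rabs whose groups did not overlap or that had a low library, those next to 1 FPKM, and 16 fixed pathway genes, of which 1 is not reported here. Other genes were named after their values were seen. Alternatives were another pseudocount, filter, scaling, eBayes setting, weights, a replicate block, the most abundant transcript, and each library left out.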

Additional observations from a re-analysis of the deposited data

How the results depend on the processing

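The number of Rab genes called was 0 under all 16 alternatives, and that of Rab transcripts 0 under the 15 that were run on single transcripts. Over all genes 2 were called with sample quality weights, 4 with the most abundant transcript and 0 to 1 with a library left out. The labels do not say whether the replicate numbers pair the libraries. Deviations from the group mean correlated at 0.064, 0.019 and 0.261 between same-numbered libraries of replicates 1 to 3. Between libraries of unlike number the correlations ran from -0.174 to 0.084, so pairing, above all of replicate 3, was not settled. With the replicate block 0 Rab genes and 0 genes in all were called, and 23 Rabs averaged higher. With a filter of 5 FPKM 15 of 31 Rabs averaged higher, and with a library left out 14 to 30 of 41. Rab38 came to 0.0279 with equal sums. With a library left out the log2 difference ran from -0.14 to 0.0705 for Rab38, from -0.30 to 0.00506 for Rab27a and from -0.50 to 0.0154 for Rab32. The cause was not tested. Transcripts called over all genes numbered 1 with the replicate block and 19 with quality weights. With quality weights 2389 genes and 8 Rabs, and without untreated replicate 1 461 genes and 5 Rabs, were below an unadjusted p of 0.05, and 15 of 41 Rabs kept their sign under all alternatives. FPKM give no counting interval, so genes listed near 0 are not shown to be absent.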
